A study of Mus musculus with 16 samples.

Results

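The Slc25 carriers are a family of membrane proteins, most of them in the inner mitochondrial membrane, that exchange metabolites between cytosol and matrix. Members were taken as the listed genes whose mouse symbol begins with Slc25a, without Slc25a20, and 36 of the 12021 listed genes were members. The annotation used for names (GENCODE M21) holds 46 such symbols, and those that are not listed in the table used here, among them Slc25a13, were not analysed here. Total RNA, depleted of ribosomal RNA, had been sequenced from snap-frozen tibialis anterior (a fast leg muscle) of mice with cancer cachexia and of their controls. The 4 mouse models are named KPP, KPC, C26 and LLC in the labels, each with 2 control and 2 cachectic libraries, so that 8 groups made up 16 libraries. Control and cachectic mice of a model shared a strain, given as C57BL/6J for KPP and for LLC, CD2F1 for C26 and mixed for KPC. The alleles or cells behind each model, the age of the mice and the time of sampling were not stated in the labels, and model and cohort cannot be told apart. Strain cannot be told apart from the model either, except that KPP and LLC share a strain label.

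Each carrier is built from a repeated pair of membrane helices and usually swaps one solute for another. In muscle the family is best known for the ADP/ATP carrier and the phosphate carrier, which bring ADP and phosphate to ATP synthase and return ATP to the contractile apparatus. Others move the reducing equivalents of the malate-aspartate shuttle, amino acids, cofactors, nucleotides and iron into or out of the matrix. Carriers of the inner membrane are encoded in the nucleus and inserted by the TIM22 complex.

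Values are on the log2 scale, as reads per 1000000 listed reads, unless a sentence says otherwise, and a change is the mean of the cachectic libraries minus the mean of the controls, ± SE. A series of 8 library values is given in the order KPP 1 and 2, KPC 1 and 2, C26 1 and 2, LLC 1 and 2. "Rose", "fell" and "called" mean an adjusted p under 0.05 in limma, with Benjamini-Hochberg adjustment over all 12021 genes. The labels do not say that the 2 libraries of a group came from separate animals, so p-values measure the spread between these samples. The libraries held 28584279 to 46972882 reads, and the fewest reads of a member in a library were 29, for Slc25a29 in KPC cachectic 1. All 10 markers of muscle fibres were present in every library, the lowest at 8.63 (Mb, myoglobin). In the mean of the models 5 of the 10 fell and 1 rose, with Mb falling by 1.51 ± 0.23 (adjusted p = 0.000923). Of all genes, 13.8% fell and 27.3% rose in that mean. In C26 2 of the 10 fell, against 5.12% of all genes, and in LLC 2, against 3.66%. The part of the fibre markers in the changes of the carriers was not tested. Over all genes, the SD of replicate-to-replicate log2 differences was 0.56 in LLC cachectic and 0.53 in KPC cachectic pairs, against 0.24 to 0.36 in the other 6 groups. Mitochondrially encoded genes took 9.10% to 13.04% of reads in controls, 12.3% in KPC cachectic 2 and 5.73% to 8.91% in the other cachectic libraries. In bulk tissue, fewer cells of a type and less RNA per cell cannot be told apart.

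Control muscle expressed the family very unevenly. Slc25a4, the ADP/ATP carrier of heart and skeletal muscle, stood at 1111 ± 61.5 RPKM (SD, n = 8 control libraries), where RPKM counts reads per kb of exon per 1000000 listed reads. Below it came Slc25a11, which exchanges oxoglutarate for malate, at 84.5 ± 11.1, Slc25a3, the phosphate carrier, at 76.2 ± 7.13, and Slc25a12, the aspartate/glutamate carrier, at 67.0 ± 2.97 (SD, n = 8 each). These levels of Slc25a11, Slc25a3 and Slc25a12 overlapped between neighbours, whereas every control library had Slc25a4 above Slc25a11 and Slc25a12 above Slc25a5. Slc25a5, the ADP/ATP carrier of most other tissues, reached 17.1 ± 1.98 RPKM, and the annotation also holds a processed copy of it, Slc25a5-ps, so that its count is uncertain. On this scale 8 members exceeded 10 and 6 lay below 1. The lowest was Slc25a53, an X-linked member whose substrate is not settled, at 0.25 ± 0.05 (SD, n = 8). The widest relative spread among the better expressed members was that of Slc25a25, a calcium-regulated ATP-Mg/phosphate carrier, which ran from 2.63 to 25.1 RPKM within controls.

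**Figure D1:**
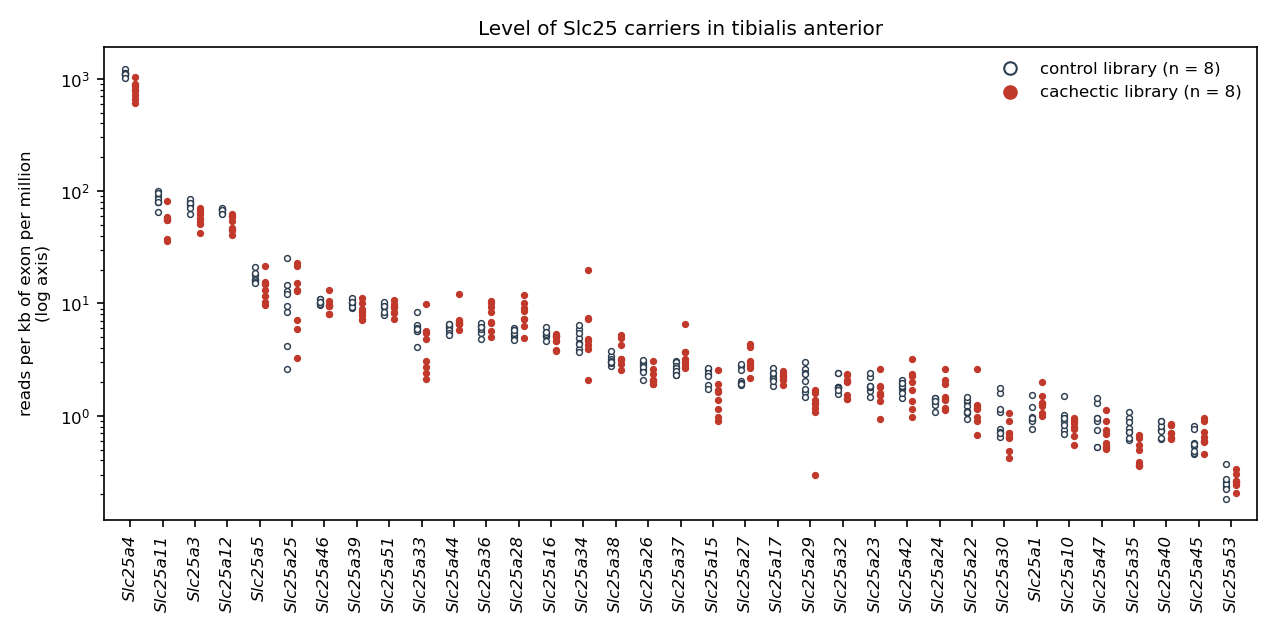
Level of Slc25 carriers in every library, in RPKM on a log axis, with members ordered by their control mean; open points are the 8 control and red points the 8 cachectic libraries. Slc25a4 stands apart at a control mean of 1111, and Slc25a53 is lowest at 0.25.

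Averaged over the 4 models, 17 of the 36 carriers changed in cachectic muscle, 13 downward and 4 upward. Those that fell included the ADP/ATP carriers Slc25a4 and Slc25a5, the phosphate carrier Slc25a3 and both abundant carriers of the malate-aspartate shuttle (Slc25a11 and Slc25a12). Those that rose were both mitoferrins (Slc25a28 and Slc25a37), the pyrimidine nucleotide carrier Slc25a36 and Slc25a27, also called Ucp4. The 47.2% of members called compares with 41.1% of all 12021 genes. The 36.1% of members that fell compares with 13.8% of all genes that fell, and the 11.1% that rose with 27.3% that rose. By sign alone, 14 members (38.9%) were lower in all 4 models, against 14.8% of all genes, and 6 (16.7%) were higher in all 4, against 28.5%. These counts by sign depend on the scaling. After median centring Slc25a53, 1 of the 6, was at -0.03 in C26, against 0.21 before. Slc25a16 and Slc25a46, then at -0.03 and -0.02 in LLC, became lower in all 4 models. The median change over all genes was 0.10 for the mean of the models and the median over the members was -0.08. All 17 calls were kept under median centring, quantile normalization and scaling by gene-wise differences, each of which also called Slc25a39 and Slc25a47 as falls.

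**Figure D2:**
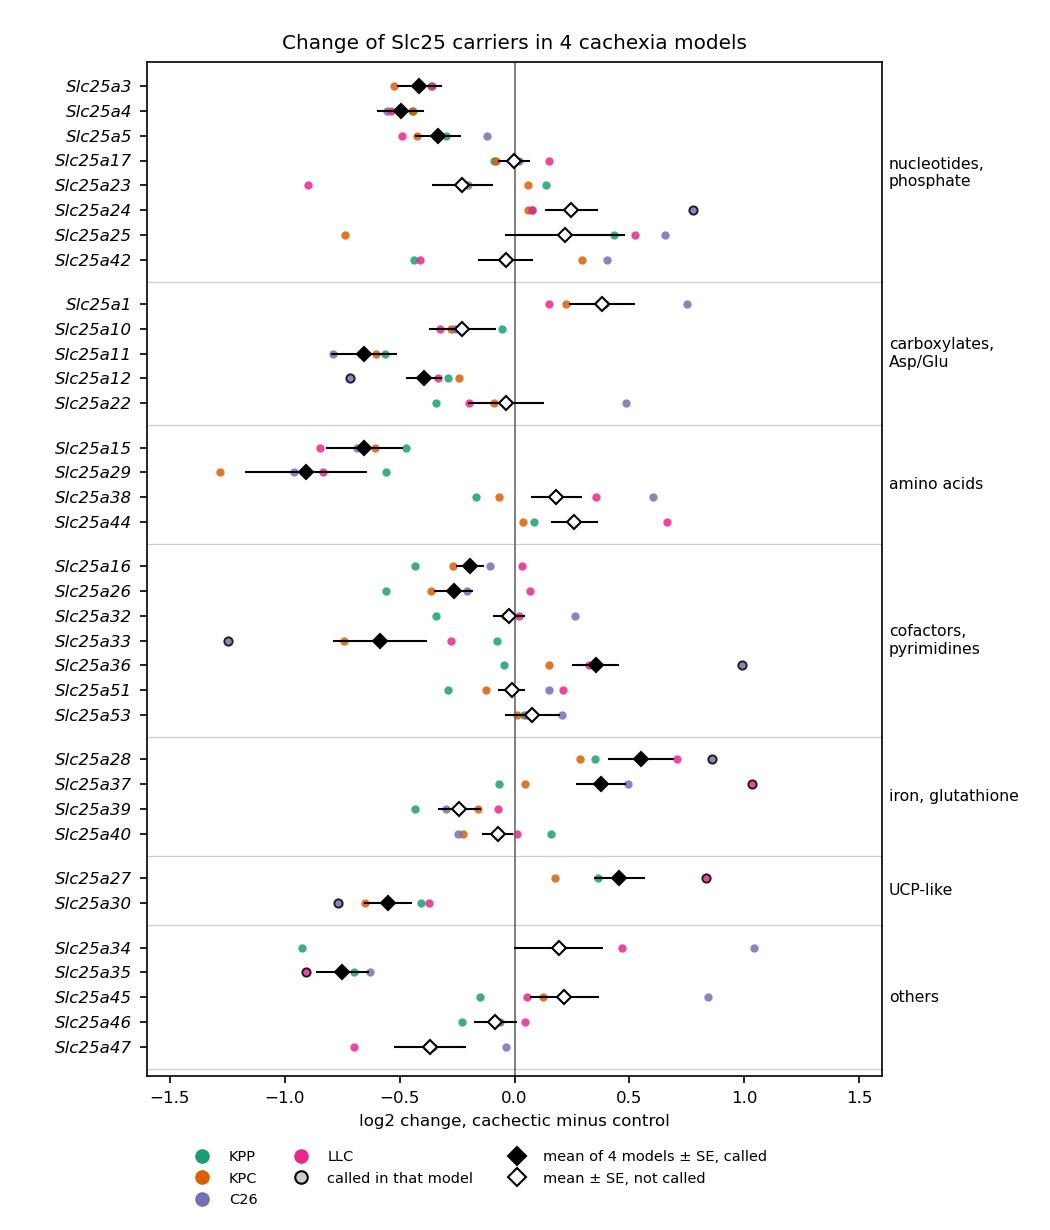
Log2 change (cachectic minus control) of Slc25 carriers, grouped by the kind of substrate; coloured points are the 4 models, with a black rim where that model's comparison was called, and diamonds are the mean of the models ± SE, filled where called. The 4 filled diamonds above 0 are Slc25a27, Slc25a28, Slc25a36 and Slc25a37, and the other filled diamonds lie below 0.

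The sequences just upstream of a few members are shown because Slc25a3 and Slc25a4 are 2 of the most abundant members and fell together, whereas Slc25a33 and Slc25a36 carry pyrimidine nucleotides and moved in opposite directions in C26. Each is the 250 bases before the annotated start from RefSeq (GRCm38.p6), written 5′ to 3′ on the gene's own strand, which is the minus strand for all 4, at chr10:91123968-91124217 for Slc25a3, chr8:46211063-46211312 for Slc25a4, chr4:149774268-149774517 for Slc25a33 and chr9:97111042-97111291 for Slc25a36. By GENCODE M21 these genes begin further upstream, at 91124059 (Slc25a3), 46211284 (Slc25a4), 149774277 (Slc25a33) and 97111157 (Slc25a36). Part of each window therefore lies inside the gene by that annotation. Capitals mark the NRF1 motif and CCGGAAG (ETS) in Slc25a3, in that order, CCGGAAG in Slc25a4, and CACGTG (E-box) in Slc25a33 and Slc25a36.
Slc25a3: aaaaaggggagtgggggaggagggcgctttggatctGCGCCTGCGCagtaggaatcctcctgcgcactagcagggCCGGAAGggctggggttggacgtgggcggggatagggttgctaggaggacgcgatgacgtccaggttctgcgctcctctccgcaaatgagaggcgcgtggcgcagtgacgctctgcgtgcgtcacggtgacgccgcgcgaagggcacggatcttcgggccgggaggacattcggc
Slc25a4: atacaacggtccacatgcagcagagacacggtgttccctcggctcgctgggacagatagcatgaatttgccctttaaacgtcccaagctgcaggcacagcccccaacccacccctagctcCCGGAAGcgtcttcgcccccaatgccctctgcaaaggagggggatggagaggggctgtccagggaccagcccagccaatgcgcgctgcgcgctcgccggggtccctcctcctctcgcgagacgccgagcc
Slc25a33: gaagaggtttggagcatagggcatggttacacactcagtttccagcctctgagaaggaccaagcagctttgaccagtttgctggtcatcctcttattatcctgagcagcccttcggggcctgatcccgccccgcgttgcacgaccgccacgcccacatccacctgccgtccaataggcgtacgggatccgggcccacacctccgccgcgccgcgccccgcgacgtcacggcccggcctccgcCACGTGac
Slc25a36: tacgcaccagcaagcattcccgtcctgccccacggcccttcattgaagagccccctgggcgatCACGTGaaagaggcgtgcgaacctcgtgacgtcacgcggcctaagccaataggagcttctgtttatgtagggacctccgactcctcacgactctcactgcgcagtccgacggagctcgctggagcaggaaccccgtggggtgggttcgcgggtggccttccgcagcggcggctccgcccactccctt
Of the 36 members, 27 matched a RefSeq promoter entry, with 34 promoters in all. Both strands were searched, and the motifs do not overlap each other in these windows. CCGGAAG was found for 4 members, Slc25a3, Slc25a4, Slc25a17 and Slc25a38, in 4 of the 34 member promoters and in 6.91% of all 32851 promoters. CACGTG was found for 4 members, Slc25a1, Slc25a15, Slc25a33 and Slc25a36, in 4 of the 34 and in 6.02% of all promoters. The NRF1 motif was found for Slc25a3 alone among the members, in 1 of the 34 and in 3.74% of all promoters. TNAAGGTCA (ERR) was found for 0 members and in 1.14% of all promoters. Members with the same letters did not share a direction: Slc25a33 and Slc25a15 fell over the models, Slc25a36 rose, and Slc25a1 was at 0.38 ± 0.14 (adjusted p = 0.0520).

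Of the 8 listed carriers of adenine nucleotides and phosphate, 3 fell and 0 rose in the mean of the models, and these were the ones that feed ATP synthase. Beside this and the counts by role below, 13.8% of all genes fell in that mean and 27.3% rose. No role was tested against these shares. Slc25a4 was at 11.32, 11.50, 11.38, 11.38, 11.33, 11.34, 11.33 and 11.22 in the control libraries and at 11.04, 10.89, 10.61, 11.26, 10.72, 10.84, 10.50 and 10.97 in the cachectic ones. It fell by 0.50 ± 0.10 (adjusted p = 0.00349), and its level dropped from 1111 ± 61.5 to 797 ± 137 RPKM (SD, n = 8 each). Within each model both cachectic libraries lay below both controls, but KPC cachectic 2, at 11.26, overlapped the LLC controls. Slc25a3 was at 8.69, 8.79, 8.72, 8.84, 8.88, 8.77, 8.62 and 8.44 in controls and 8.43, 8.33, 7.88, 8.62, 8.30, 8.53, 8.13 and 8.21 in cachectic libraries. It fell by 0.41 ± 0.10 (adjusted p = 0.00628), with both cachectic libraries below both controls in every model. Slc25a5 was at 4.76, 4.88, 4.73, 4.72, 4.95, 5.10, 4.67 and 4.63 in controls and 4.61, 4.43, 3.98, 4.62, 4.66, 5.15, 4.25 and 4.07 in cachectic libraries. It fell by 0.33 ± 0.10 (adjusted p = 0.0191), and only in C26 did the 2 groups overlap, where cachectic 2 was the highest of the 4.

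Of the 3 calcium-regulated ATP-Mg/phosphate carriers, Slc25a23, Slc25a24 and Slc25a25, none was called in the mean, at -0.23, 0.25 and 0.22. Slc25a25 was at 6.84, 6.67, 7.63, 6.04, 6.21, 6.58, 4.37 and 5.05 in controls and 7.49, 6.89, 6.65, 5.53, 6.70, 7.40, 5.79 and 4.67 in cachectic libraries, a change of 0.22 ± 0.26 (adjusted p = 0.512). Its controls ran from 4.37 in LLC control 1 to 7.63 in KPC control 1, and the control groups of the 4 cohorts were not called apart (adjusted p = 0.0799). It overlaps Naif1 on the other strand, and since the handling of strand is not given in the sources used here, reads from the overlap cannot be told apart. Slc25a24 was at 2.32, 2.29, 2.15, 2.24, 2.11, 2.32, 1.90 and 2.23 in controls and 2.73, 2.02, 2.24, 2.28, 3.15, 2.83, 1.95 and 2.34 in cachectic libraries. It rose in C26, by 0.78 ± 0.23 (adjusted p = 0.0277), a call that was lost after median centring (0.54, adjusted p = 0.120).

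Of the 5 listed carriers of carboxylates, aspartate and glutamate, 2 fell and 0 rose in the mean. Slc25a12, which moves aspartate out of the matrix in exchange for glutamate, was at 8.97, 8.99, 8.88, 8.87, 9.0, 9.02, 8.96 and 8.85 in controls and 8.74, 8.64, 8.44, 8.84, 8.36, 8.22, 8.37 and 8.78 in cachectic libraries. It fell by 0.39 ± 0.08 (adjusted p = 0.00312). It was 1 of 2 members in which all 8 cachectic libraries lay below all 8 controls, as did 0.79% of all genes, and in 0 members did all lie above, against 0.499% of all genes. Slc25a11, which works beside Slc25a12 in the malate-aspartate shuttle, was at 7.40, 7.57, 7.40, 7.49, 7.74, 7.66, 7.40 and 7.12 in controls and 6.97, 6.88, 6.26, 7.43, 6.90, 6.93, 6.30 and 6.89 in cachectic libraries. It fell by 0.66 ± 0.14 (adjusted p = 0.00467), and KPC was the model in which its groups overlapped, with cachectic 2 at 7.43. Slc25a11 overlaps Rnf167 on the other strand, whose reads cannot be told apart in the overlap. The citrate carrier Slc25a1 was at 1.09, 1.01, 1.00, 1.74, 0.72, 1.39, 0.97 and 1.06 in controls and 1.41, 1.48, 1.70, 1.49, 2.12, 1.50, 1.11 and 1.21 in cachectic libraries, with a positive change in each model and a mean short of the threshold.

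Of the 4 listed amino acid carriers, 2 fell and 0 rose. Slc25a29, a carrier of basic amino acids, was at 2.07, 2.18, 2.42, 1.93, 2.99, 2.77, 2.66 and 2.62 in controls and 1.51, 1.63, -0.35, 2.14, 1.78, 2.06, 1.86 and 1.75 in cachectic libraries. It had the largest fall of any member, 0.91 ± 0.27 in size (adjusted p = 0.0174), and KPC cachectic 1, at -0.35, was far below the rest. The change ranged from -1.22 to -0.60 without each library in turn and was called each time. Its start site on chromosome 12 lies 163 bases from that of Slc25a47, a carrier expressed mainly in liver, which points the other way and was at -0.37 (adjusted p = 0.0767). Slc25a15, the ornithine carrier of the urea cycle, was at 3.69, 3.88, 3.84, 3.91, 3.40, 3.28, 3.76 and 3.66 in controls and 3.19, 3.45, 2.69, 3.85, 2.95, 2.35, 2.46 and 3.26 in cachectic libraries. It fell by 0.65 ± 0.17 (adjusted p = 0.00938), with overlap in KPC, where cachectic 2 stood at 3.85. Slc25a38, a glycine carrier used in haem synthesis, and Slc25a44, which carries branched-chain amino acids, were at 0.18 and 0.26 and were not called.

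Among the 8 listed carriers of cofactors and pyrimidine nucleotides, 4 fell and 1 rose. Slc25a26, which imports S-adenosylmethionine, was at 3.81, 3.86, 3.75, 3.92, 3.62, 3.32, 3.70 and 3.56 in controls and 3.22, 3.33, 3.29, 3.65, 3.31, 3.21, 3.89 and 3.50 in cachectic libraries. It fell by 0.27 ± 0.08 (adjusted p = 0.0248), although LLC cachectic 1 was its highest LLC library, and it overlaps Lrig1 on the other strand. Slc25a16, linked to the transport of coenzyme A, fell by 0.19 ± 0.06 (adjusted p = 0.0255).

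The 2 listed pyrimidine nucleotide carriers were called in opposite directions. Slc25a33 was at 3.58, 3.99, 3.59, 3.51, 3.42, 3.42, 3.50 and 2.94 in controls and 4.23, 3.18, 2.19, 3.43, 1.99, 2.35, 3.35 and 2.53 in cachectic libraries. It fell by 0.59 ± 0.21 over the models (adjusted p = 0.0377, a call lost in 11 of 16 fits that leave out a library) and by 1.25 ± 0.41 in C26 (adjusted p = 0.0410), where both cachectic libraries lay below both controls. In KPP its 2 cachectic libraries lay on either side of the controls. Slc25a36 was at 5.92, 5.76, 5.93, 6.01, 5.72, 5.54, 5.84 and 5.88 in controls and 5.60, 6.00, 6.47, 5.77, 6.65, 6.59, 6.33 and 6.04 in cachectic libraries. It rose by 0.35 ± 0.10 over the models (adjusted p = 0.0161) and by 0.99 ± 0.20 in C26 (adjusted p = 0.00861), the smallest p-value of any member in that model. After median centring the C26 rise was 0.75 (adjusted p = 0.0229).

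Of the 4 listed carriers of iron and glutathione 2 rose, both of them iron carriers, and 0 fell. Slc25a28, mitoferrin-2, was at 4.34, 4.49, 4.46, 4.26, 4.18, 4.35, 4.45 and 4.15 in controls and 4.76, 4.76, 5.08, 4.21, 5.01, 5.24, 5.47 and 4.55 in cachectic libraries. It rose by 0.55 ± 0.14 over the models (adjusted p = 0.0107) and by 0.86 ± 0.29 in C26 (adjusted p = 0.0435), and the C26 call was lost after median centring (0.62, adjusted p = 0.120). KPC cachectic 2, at 4.21, lay below both KPC controls. Slc25a37, mitoferrin-1, the form of developing red cells, was at 4.22, 4.19, 4.07, 4.00, 3.81, 3.85, 3.92 and 3.79 in controls and 4.00, 4.27, 4.11, 4.04, 4.17, 4.47, 5.31 and 4.47 in cachectic libraries. It rose by 0.38 ± 0.11 over the models (adjusted p = 0.0154) and by 1.04 ± 0.21 in LLC (adjusted p = 0.0215), where the 2 cachectic libraries were at 5.31 and 4.47 and the controls at 3.92 and 3.79. Without LLC cachectic 1 its LLC change was 0.62 (adjusted p = 0.0978).
In LLC, erythroid markers rose together with Slc25a37. Of 6 listed, all rose in LLC, against 3.42% of all genes. Their summed level went from 144 to 164 reads per 1000000 in LLC controls to 1603 to 3296 in LLC cachectic libraries. The same sum went from 255 to 272 to 382 to 1151 in C26, from 174 to 249 to 465 to 538 in KPP, and from 202 to 292 to 329 to 679 in KPC. The change of Slc25a37 was 1.04 in LLC, 0.49 in C26, -0.07 in KPP and 0.05 in KPC. None of the 6 markers was at 0 reads in any library, and their part in the change of Slc25a37 was not tested.

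Among the relatives of the uncoupling proteins, Slc25a27 rose and Slc25a30 fell. Slc25a27 was at 3.44, 3.50, 3.01, 3.33, 2.94, 2.94, 2.90 and 2.93 in controls and 3.57, 4.10, 3.61, 3.08, 3.38, 3.41, 4.00 and 3.49 in cachectic libraries. It rose by 0.46 ± 0.11 over the models (adjusted p = 0.00704) and by 0.83 ± 0.22 in LLC (adjusted p = 0.0431). Slc25a30, first described in kidney, was at 1.80, 1.73, 2.30, 2.38, 2.86, 3.01, 1.57 and 1.69 in controls and 1.53, 1.18, 1.70, 1.69, 2.06, 2.27, 0.94 and 1.57 in cachectic libraries. It fell by 0.55 ± 0.10 over the models (adjusted p = 0.00232) and by 0.77 ± 0.21 in C26 (adjusted p = 0.0212). Of the 5 others listed, Slc25a35, whose substrate is not settled, was at 1.41, 1.53, 1.18, 1.24, 2.01, 1.81, 1.4 and 1.71 in controls and 0.52, 1.02, 0.45, 0.44, 1.33, 1.24, 0.41 and 0.88 in cachectic libraries. It fell by 0.75 ± 0.11 over the models (adjusted p = 0.000953) and by 0.91 ± 0.23 in LLC (adjusted p = 0.0397), and it overlaps Rangrf on the other strand. Members not called in the mean ranged from -0.37 (Slc25a47) to 0.38 (Slc25a1). Among them the carriers of dicarboxylates (Slc25a10), glutamate (Slc25a22), folate (Slc25a32) and NAD (Slc25a51), with Slc25a17, Slc25a40, Slc25a42, Slc25a45, Slc25a46 and Slc25a53, lay between -0.23 and 0.22. Slc25a46 is a protein of the outer membrane with a part in mitochondrial fission, and it was at -0.08.

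**Figure D3:**
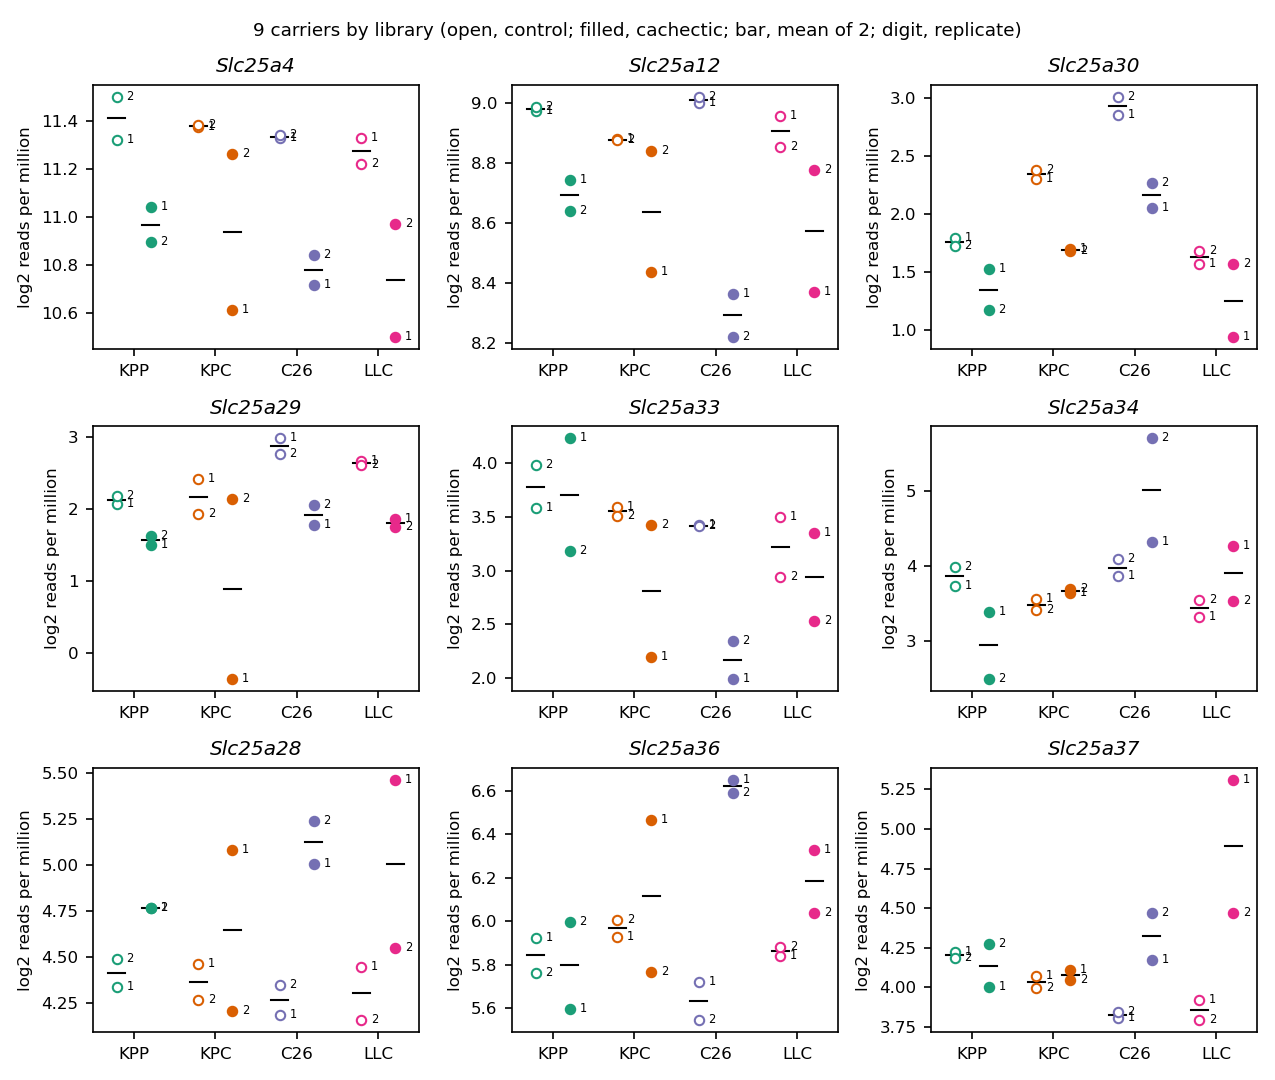
Log2 reads per 1000000 of 9 Slc25 carriers in each library, by model; open points are controls, filled points are cachectic libraries, bars are means of 2 and digits are replicate numbers. Slc25a12 is lower in all 8 cachectic libraries than in any control, and Slc25a37 is highest in LLC cachectic 1, at 5.31.

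The single models differed in how many members were called. In KPP 0 of 36 members were called by limma, against 1.78% of all genes (0.707% upward and 1.07% downward), with 9 at an unadjusted p under 0.05 and 0 called with voom weights; the smallest adjusted p was 0.0784 (Slc25a16, -0.43). In KPC 0 members were called, against 0.0% of all genes, with 5 at an unadjusted p under 0.05, 0 called with voom weights and the smallest adjusted p at 0.547. In C26, 7 members were called (19.4%, against 28.4% of all genes), 3 upward (8.33% against 23.2%) and 4 downward (11.1% against 5.12%). The C26 rises were Slc25a24, Slc25a28 and Slc25a36 and the falls included Slc25a12, Slc25a30 and Slc25a33. The median change of all genes in C26 was 0.28. After median centring, which lowers every C26 change by the same amount, 9 members were called, 8 of them downward. The share of falls among the called members went from 57.1% to 88.9%. Slc25a4 was then among the falls, at -0.79 (limma, adjusted p = 0.0362). The share of all genes called after centring is not given here, so these counts do not single out the carriers. In LLC, 4 members were called (11.1%, against 7.08% of all genes), Slc25a27 and Slc25a37 upward (5.56% against 3.42%) and 2 downward, among them Slc25a35 (5.56% against 3.66%).

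Single libraries decided several of these counts. The share of all genes called in each such fit is not given here, so the counts do not single out the carriers. KPC cachectic 2 was the KPC cachectic library whose carriers lay nearest to the controls, so leaving it out enlarges their KPC falls by construction. The KPC change was then -2.53 for Slc25a29, -1.18 for Slc25a11, -0.89 for Slc25a3 and -0.77 for Slc25a4. These values rest on KPC cachectic 1 alone, which held 29 reads of Slc25a29. The lone library is then assumed to vary like the other groups, which these data cannot show. Without KPC cachectic 1 the KPC count stayed at 0, and the KPP count was 2 without either KPC or either LLC cachectic library. The C26 count was 0 without C26 control 1 or control 2, 4 without cachectic 1 and 1 without cachectic 2. It was 13 without either KPC cachectic library and 14 without either LLC cachectic library. The LLC count was 0 without LLC control 1, control 2 or cachectic 1 and 14 without cachectic 2. It was 10 without either KPC cachectic library and 2 without KPP control 1 or 2, KPC control 1 or 2 or C26 control 1 or 2. Of the 17 calls in the mean, 14 were kept without each library in turn, and the calls of Slc25a33, Slc25a26 and Slc25a16 were lost in 11, 7 and 6 of the 16 fits that leave out a library.

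Whether a carrier responded differently between models was asked with limma's F test across the 4 changes. It called 0 of 36 members with limma, against 0.116% of all genes, with 5 members at an unadjusted p under 0.05, 0 called with voom weights and the smallest adjusted p at 0.214 (Slc25a37). Slc25a34, a member whose substrate is not settled, had opposite signs: it was at 3.73 and 3.99 in KPP controls and 3.38 and 2.49 in KPP cachectic libraries, but at 3.86 and 4.09 in C26 controls and 4.32 and 5.71 in C26 cachectic libraries. The changes were -0.93 ± 0.39 in KPP and 1.04 ± 0.39 in C26, neither called, and their difference was -1.97 ± 0.55 (adjusted p = 0.103). Between KPP and LLC, which share a strain label, the change of Slc25a37 differed by -1.10 ± 0.30 (adjusted p = 0.285). Slc25a36 differed between KPP and C26 by -1.04 ± 0.29 (adjusted p = 0.103). Without LLC cachectic 2 the F test called 3 members, and without either KPC cachectic library 1.

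Control muscle of the 4 cohorts differed in 1 member, Slc25a30 (adjusted p = 0.00724, F test over the 4 control groups), against 4.0% of all genes. Its controls were at 1.80 and 1.73 in KPP, 2.30 and 2.38 in KPC, 2.86 and 3.01 in C26 and 1.57 and 1.69 in LLC. The 4 cohorts did not overlap, with C26 highest and LLC lowest, and the C26 cachectic libraries at 2.06 and 2.27 were still above the KPP controls. Without C26 control 1 or 2 the call was lost (adjusted p up to 0.108). The count was 2 without KPC control 2 and 3 without either LLC cachectic library.

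Because Slc25a4 makes up most of the family's reads, the family as a whole was also read as a share. The 36 members took 0.382% to 0.466% of reads in controls, 0.400% in KPC cachectic 2 and 0.275% to 0.361% in the other cachectic libraries. Slc25a4 alone was 59.7% to 62.5% of the family's reads in controls and 52.5% to 61.5% in cachectic libraries. Without it the family took 0.143% to 0.176% in controls and 0.123% to 0.154% in cachectic libraries, ranges that overlap. The mitochondrially encoded share was also below all controls in every cachectic library except KPC cachectic 2, which had the highest share of any cachectic library. Of 21 such genes, 19 fell in the mean of the models, 12 in C26, 5 in LLC, 4 in KPP and 0 in KPC. Of all genes, 13.8% fell in that mean, 5.12% in C26, 3.66% in LLC, 1.07% in KPP and 0.0% in KPC. Both shares are parts of the same read total in a library. Within controls, KPP control 2 had the highest carrier share, 0.466%, and the lowest mitochondrially encoded share, 9.10%. LLC control 2 had the lowest carrier share, 0.382%, and the highest mitochondrially encoded share, 13.04%. The part of the mitochondrially encoded share in the falls of the carriers was not tested. Fibroblast markers also moved, 5 of 7 falling in the mean, and macrophage markers rose in 8 of 9 in C26, from a sum of 95.3 to 115 reads per 1000000 to 255 to 264. In C26, 5 of 8 endothelial markers rose as well, from a sum of 358 to 382 reads per 1000000 to 549 to 558. Of all genes, 23.2% rose in C26. No macrophage, endothelial or fibroblast marker was at 0 reads in any library, and the part of these cells in the changes of the carriers was not tested.

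**Figure D4:**
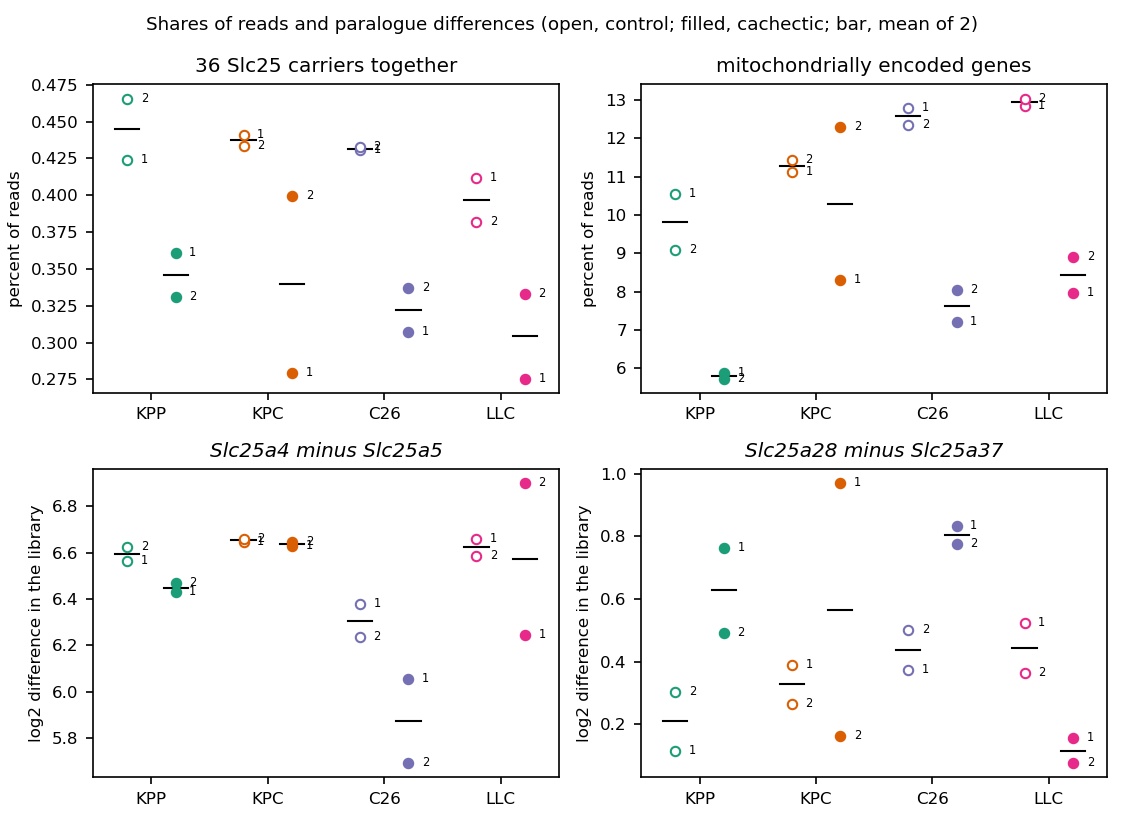
Share of reads of the 36 Slc25 carriers and of mitochondrially encoded genes (percent), and the within-library log2 difference of 2 paralogue pairs, by model; open points are controls, filled points are cachectic libraries and bars are means of 2. The carrier share in KPC cachectic 2, 0.400%, lies within the control range of 0.382% to 0.466%.

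A difference between paralogues within a library does not depend on the scaling between libraries. The difference Slc25a4 minus Slc25a5 averaged 6.54 in controls and 6.38 in cachectic libraries, a change of -0.16 (exact permutation test within models, two-sided, p = 0.130, adjusted p = 0.218 over 2 pairs). The smallest p the test allows is 0.00154. By model the change was -0.14 in KPP, -0.02 in KPC, -0.43 in C26 and -0.05 in LLC, where the cachectic libraries stood apart at 6.24 and 6.90. The mean change was -0.24 without LLC cachectic 2, which passes the threshold (exact permutation test, adjusted p = 0.00617), and -0.080 without LLC cachectic 1 (adjusted p = 0.435). The difference of the mitoferrins, Slc25a28 minus Slc25a37, averaged 0.35 in controls and 0.53 in cachectic libraries, a change of 0.17 (exact permutation test, p = 0.218, adjusted p = 0.218). It was higher in cachexia in KPP (0.42), KPC (0.24) and C26 (0.37) and lower in LLC (-0.33). The mean change was 0.073 without KPC cachectic 1 (exact permutation test, adjusted p = 0.508) and 0.27 without KPC cachectic 2 (adjusted p = 0.120).

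Genes that work beside the carriers were counted in the mean of the models, in 7 lists. In that mean 13.8% of all genes fell and 27.3% rose, and no list was tested against these shares. A count near them, such as 1 of 4 relatives rising, is not a result about its list. Of 7 enzymes of the malate-aspartate and glycerol phosphate shuttles 5 fell: the cytosolic and mitochondrial malate dehydrogenases Mdh1 (-0.92 ± 0.18, adjusted p = 0.00246) and Mdh2 (-0.61 ± 0.11, adjusted p = 0.00186), Got2, Gpd1 and Gpd2. Both subunits of the mitochondrial pyruvate carrier fell, Mpc1 (-0.45) and Mpc2 (-0.75), and so did all 3 outer membrane channels, Vdac1 (-0.40), Vdac2 (-0.26) and Vdac3 (-0.29). Of 8 genes for import of the carriers 2 fell, Timm22 (-0.62), the channel that inserts them, and its partner Timm29 (-0.32). Of 5 sideroflexins, another family of the inner membrane, 3 rose, Sfxn2 (0.31), Sfxn3 (0.45) and Sfxn4 (0.42). Of 4 listed relatives of the carriers under other names 1 rose, the uncoupling protein Ucp2 (0.82 ± 0.22, adjusted p = 0.0117), while Ucp3 was at -0.27 ± 0.37 and was not called. Of 6 genes of the calcium uniporter 0 were called in the mean by limma, 1 of them at an unadjusted p under 0.05, and Mcu rose in C26 (0.61, adjusted p = 0.0294). In C26 the calls in these lists were 3 shuttle enzymes, both pyruvate carrier subunits, Timm22 and Vdac1 downward and Sfxn3 and Mcu upward. Of all genes, 5.12% were called downward and 23.2% upward in C26.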

How the data were processed

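RNA of 16 libraries was compared in 4 models. The authors deposited 1 table of log2 values, 1 column per library; the submitters' processing notes name featureCounts 1.4.5, limma and GRCm38, while aligner, annotation, strand handling and filter were not given in the sources used here. Whole reads were recovered from 100% of the values (tolerance 0.0001): each deposited log2 value is log2 of reads per 1000000 listed reads, with 0.5 added to the count and 1 to the total, with no further scaling, so a change is relative to the listed genes' total. Library depth was 28584279 to 46972882 reads.

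Groups came from the sample titles. A limma fit (limma 3.58.1, R 4.3.3) gave the 8 groups a mean each and a shared spread with a trend. Contrasts were each model, their mean, an F test of differences between models and an F test over controls, adjusted over 12021 genes. Reads per kb used exon lengths of GENCODE M21. Paralogue differences were tested by exact permutation within models. The code was tested on simulated data. The text gives every library for up to 16 called members with the smallest p and for a fixed set of carriers. The members and lists were chosen with earlier results of these data known. Alternatives were 3 scalings, a filter (mean log2 of at least 2), 2 reads added, 3 variance settings, a replicate block, an adjusted p under 0.10, a model's libraries alone, each library left out and, chosen after seeing the data, KPC cachectic 2 and LLC cachectic 1 left out together. A single member is counted among the 36 but not reported here by name.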

Additional observations from a re-analysis of the deposited data

Results flagged for a closer look

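The within-library difference Slc25a28 minus Slc25a37 moved in opposite directions in different models. In KPP and in C26 both cachectic libraries lay above both controls, and in LLC both lay below. The change in KPP exceeded that in LLC by 0.75 and the change in C26 exceeded that in LLC by 0.70 on the log2 scale, and these differences between models were not tested.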

How the results depend on the processing

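No result reversed. Counts of members called under leaving out each library in turn were 0 to 2 in KPP, 0 to 7 in KPC, 0 to 14 in C26, 0 to 14 in LLC, 14 to 21 in the mean, 0 to 3 for the difference between models and 0 to 3 for the controls; Slc25a4 minus Slc25a5 ran from -0.24 to -0.080 (exact permutation tests, adjusted p from 0.00617 to 0.435) and Slc25a28 minus Slc25a37 from 0.073 to 0.27 (adjusted p from 0.120 to 0.508). With KPC cachectic 2 and LLC cachectic 1 left out together, the counts were 10 in KPP, 13 in KPC, 19 in C26, 5 for the difference between models and 5 for the controls. With a model's 4 libraries alone they were 3 in KPP, 17 in C26 and 0 in LLC, and at an adjusted p under 0.10 they were 2 in KPP, 15 in C26 and 2 for the controls. The filter on mean log2 values left 0 for the controls, since it removes Slc25a30. Without the LLC model, Slc25a4 minus Slc25a5 changed by -0.20 and Slc25a28 minus Slc25a37 by 0.34 (exact permutation tests, adjusted p = 0.0370 each). The cause of these changes was not tested. The share of all genes called in these refits is not given here, so the counts do not single out the carriers. The replicate block left 2 calls in LLC against 4 and 18 in the mean against 17. Over genes, the difference control 1 minus control 2 was correlated with cachectic 1 minus cachectic 2 of the same model. The correlation was 0.09 in KPP, -0.003 in KPC, -0.04 in C26 and 0.02 in LLC, which gave no sign of pairing by replicate number. The difference between Slc25a12 and Slc25a13 was not run because Slc25a13 is not in the table used here. With 2 libraries a group, the pooled spread limits what single models can show. Some members are measured on few reads, with as few as 29 for Slc25a29, 42 for Slc25a35 and 45 for Slc25a45 in a library.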
